A study of Mus musculus with 9 samples.

Results

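A set of 9 genes of the Wnt and Norrin receptor complex of brain endothelium were followed across the series: the ligand Ndp, the receptors Fzd4 and Fzd6, the co-receptors Lrp5 and Lrp6, the co-factors Tspan12, Adgra2 and Reck, and the transducer Ctnnb1. They were chosen by gene symbol, and all 9 were found among the 32531 gene rows of the count files. The study measured RNA by sequencing in cerebral cortex of untreated adult control mice of the Abcb1a-TRAP line ES3026. TRAP, translating ribosome affinity purification, isolates tagged ribosomes and the mRNA bound to them. In this line the transgene Abcb1a-EGFP/Rpl10a places a fusion of green fluorescent protein and the ribosomal protein Rpl10a under regulatory sequence of Abcb1a, a drug efflux pump of brain endothelium. The 9 libraries fell into 3 groups of 3. The ES IP and JL IP groups hold ribosome-bound RNA immunoprecipitated (IP) from the same line and extracted by investigators with the initials ES and JL, and the JL input group holds total RNA extracted by JL. All 3 groups carry the transgene, so no library came from a mouse without the tag. The labels give neither the sex of the mice nor whether animals were pooled, and adjusted p-values measure only the spread between these libraries.

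Wnt ligands bind Frizzled receptors together with the co-receptors Lrp5 or Lrp6, which spares beta-catenin from degradation so that it can act with TCF and LEF factors in the nucleus. In endothelium of the brain and retina this pathway is known for driving vessel growth into the tissue and for setting up and keeping the barrier. Norrin, the product of Ndp, is a ligand that is no Wnt yet uses Fzd4 with Lrp5 and the tetraspanin Tspan12, while Wnt7a and Wnt7b use Frizzled with the helper proteins Adgra2 (also called Gpr124) and Reck.

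Libraries held 31987470 to 46598478 gene counts. The check of the line, Abcb1a, stood at 451, 491 and 456 CPM (read counts scaled to a common library size with TMM factors) for the JL IPs, 55.2, 42.1 and 37.5 for the ES IPs and 1.90, 2.71 and 1.85 for input. The label endothelial cells is attached to all 3 groups. Summed over 10 endothelial markers, the JL IPs held 3613 to 3780 CPM, the ES IPs 367 to 582 and the inputs 14.7 to 17.4. Summed over 10 neuronal markers, they held 1893 to 2457, 15419 to 17021 and 15304 to 16001 CPM in the same order. By these sums the inputs do not bear out the label, and the ranges of the neuronal sum in ES IPs and inputs overlapped. Among the ES IPs, replicate 1 correlated with the others at 0.957 and 0.954 (Pearson, log2 CPM across 11666 genes), while replicates 2 and 3 correlated at 0.988.

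The members lie on 7 autosomes and the X chromosome (mm10, GENCODE M21): Ndp at chrX:16885521-16911774, Fzd4 at chr7:89404355-89413134, Fzd6 at chr15:39006034-39038188, Lrp5 at chr19:3584828-3686564, Lrp6 at chr6:134446476-134566965, Tspan12 at chr6:21771395-21852515, Adgra2 at chr8:27085583-27123436, Reck at chr4:43875530-43944806 and Ctnnb1 at chr9:120929216-120960507. Exons of 4 members overlap a gene on the other strand. Ctnnb1 shares 759 exon bases with Ulk4, which held 19 to 221 counts per library against 11628 to 38524 for Ctnnb1. Adgra2 shares 73 bases with Brf2, which held 55 to 176 counts against 295 to 841. Fzd6 and Tspan12 share 152 and 98 bases with the noncoding genes Gm26704 and Gm30270.

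RefSeq promoter sequence (GRCm38.p6) was at hand for 5 of the 9 members, Ndp, Fzd4, Tspan12, Reck and Ctnnb1. The 250 bases before the annotated start are shown for the ligand and for 3 receptor-side members, to set beside their unlike values in input and IP. Capitals mark matches to 5 short motifs on either strand. The letters CTTTGA form a core of TCF and LEF sites. A close variant, CTTTGT, is also read by Sox factors. The core of ETS sites was searched as CGGAAG. The GC box was searched as GGGCGG, and the TATA box as TATAAA. The first and the second of these differ only in their last letter, and matches that overlap or adjoin form 1 longer run of capitals.
Ndp, chrX:16911775-16912024, minus strand: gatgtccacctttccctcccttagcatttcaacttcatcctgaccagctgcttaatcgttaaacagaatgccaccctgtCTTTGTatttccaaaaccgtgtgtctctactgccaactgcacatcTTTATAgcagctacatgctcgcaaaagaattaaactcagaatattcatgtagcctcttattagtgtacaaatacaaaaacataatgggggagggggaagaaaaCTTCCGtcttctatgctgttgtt
Fzd4, chr7:89404116-89404365, plus strand: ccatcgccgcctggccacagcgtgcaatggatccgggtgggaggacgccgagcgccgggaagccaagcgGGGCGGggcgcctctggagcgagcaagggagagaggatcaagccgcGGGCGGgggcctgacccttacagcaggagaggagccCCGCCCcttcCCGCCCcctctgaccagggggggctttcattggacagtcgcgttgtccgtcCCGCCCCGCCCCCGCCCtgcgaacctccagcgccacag
Tspan12, chr6:21852534-21852783, minus strand: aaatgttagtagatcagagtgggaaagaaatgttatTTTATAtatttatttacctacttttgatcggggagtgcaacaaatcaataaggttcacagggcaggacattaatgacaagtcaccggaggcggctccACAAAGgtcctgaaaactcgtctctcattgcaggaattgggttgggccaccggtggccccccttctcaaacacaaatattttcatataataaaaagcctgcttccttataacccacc
Reck, chr4:43875280-43875529, plus strand: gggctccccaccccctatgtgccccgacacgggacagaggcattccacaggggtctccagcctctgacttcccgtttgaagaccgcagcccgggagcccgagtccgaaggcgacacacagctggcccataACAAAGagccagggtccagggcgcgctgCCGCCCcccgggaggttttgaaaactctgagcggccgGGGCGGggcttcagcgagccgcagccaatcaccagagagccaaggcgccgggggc

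By base composition these promoters were of 2 kinds. Those of Fzd4 and Reck had a G+C content of 72.8% and 68.4%, with 25 and 19 CpG dinucleotides and 7 and 2 GC boxes. Those of Ndp and Tspan12 had 41.2% and 42.0%, with 4 and 5 CpG, no GC box and 1 TATA box match each. Both matches were on the opposite strand, as TTTATA, near the middle of the stretch in Ndp and toward its upstream end in Tspan12. They are letter matches and were not tested as working TATA boxes. Over 32851 promoters of the table cut to the same 250 bases, the median was 52.4% G+C and 6 CpG, 32.7% held a GC box and 12.4% a TATA box match. The CTTTGT variant was present once each in Ndp, Tspan12 and Reck, and in 16.5% of all promoters. Of the 4 promoters shown, that of Ndp alone held the ETS core, which 13.6% of all promoters held. None of the 4 held the CTTTGA core, against 13.8% of all. Both start sites listed for Ctnnb1 lay in G+C-rich sequence, at 74.8% and 74.4%. Tspan12 and Fzd4, partners in Norrin signalling, thus had promoters of unlike base composition.

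In the JL IPs 8 of the 9 members were higher than in the JL inputs and 1, Ndp, was lower (edgeR's quasi-likelihood test, Benjamini-Hochberg adjusted p under 0.05). Among the 17357 genes tested, 74.1% were called, 36.7% as higher and 37.4% as lower. The members' log2 fold changes had a median of 2.49, against -0.09 over all genes tested. For all 9 members the libraries of the groups did not overlap, which held for 80.8% of all genes. IP and input are 2 fractions, ribosome-bound and total RNA. A fold change between them is therefore no change in cell number or in RNA per cell between conditions. Which cells carried the tag and how much of a transcript was on ribosomes both enter it and cannot be told apart.

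**Figure D1:**
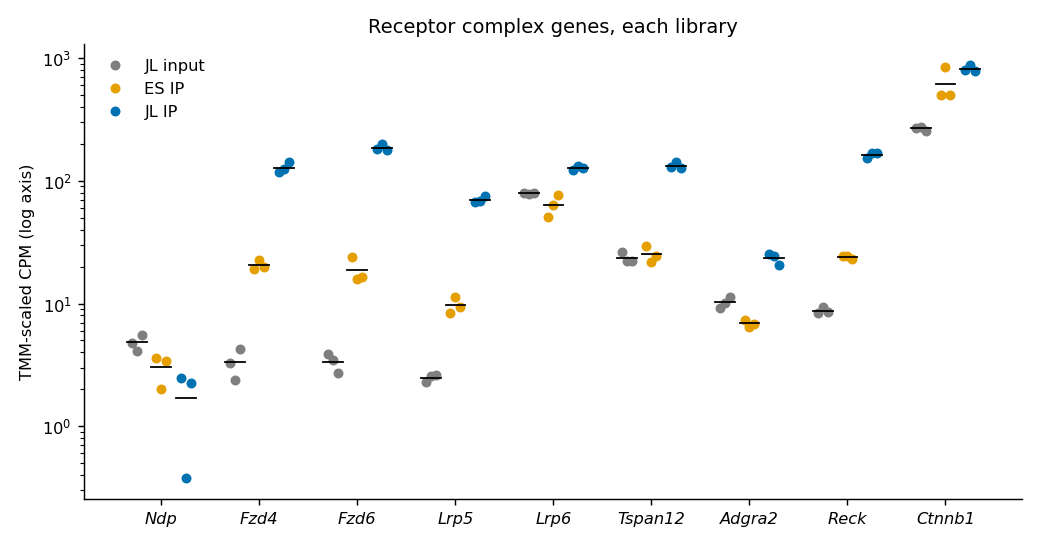
CPM of the 9 members in each of the 9 libraries, on a log axis; points are libraries and bars are group means (n = 3). Fzd4, Fzd6, Lrp5 and Reck stepped up from input to ES IP to JL IP without overlap, while Tspan12 overlapped between input and ES IP and Adgra2 and Lrp6 had their lowest levels in the ES IPs.

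The receptors rose most. Fzd4, the receptor of Norrin, stood at 3.26, 2.38 and 4.29 CPM in the inputs and 117, 124 and 142 in the JL IPs (log2 fold change 5.28 ± 0.20 SE, edgeR adjusted p = 5.52e-08). Fzd6, a Frizzled best known for planar polarity of the skin, stood at 3.87, 3.49 and 2.74 CPM in the inputs and 182, 199 and 179 in the JL IPs (5.79 ± 0.14, edgeR adjusted p = 4.1e-09). Every JL IP library lay far above every input library for both receptors.

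The co-receptors differed widely from each other. Lrp5, the co-receptor used by Norrin, stood at 2.28, 2.59 and 2.61 CPM in the inputs and 67.2, 68.3 and 75.7 in the JL IPs (4.82 ± 0.12, edgeR adjusted p = 5.16e-09). Lrp6, its close relative, stood at 79.3, 78.3 and 78.9 CPM in the inputs and 123, 132 and 126 in the JL IPs (0.69 ± 0.07, edgeR adjusted p = 1.63e-05). Lrp6 varied little among the inputs and had the smallest rise of the 8 members that rose.

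Among the co-factors, Reck led. Reck, a membrane-anchored protein that presents Wnt7 and was first known as an inhibitor of matrix metalloproteinases, stood at 8.32, 9.32 and 8.51 CPM in the inputs and 154, 167 and 169 in the JL IPs (4.23 ± 0.09, edgeR adjusted p = 2.69e-09). Tspan12, the tetraspanin that aids Norrin at Fzd4, went from 26.2, 22.2 and 22.1 to 130, 141 and 127 CPM (2.49 ± 0.10, edgeR adjusted p = 6.05e-08). Adgra2, the adhesion receptor that acts with Reck, went from 9.28, 10.1 and 11.3 to 25.2, 24.4 and 20.5 CPM (1.19 ± 0.14, edgeR adjusted p = 7.77e-05). The 3 co-factors thus ranged from a small to a large rise. Of 9 pericyte markers 7 were lower and 1, Anpep, was higher in the JL IPs, with a summed level of 24.9 to 52.2 CPM against 35.6 to 39.7 in the inputs, and none was at 0 throughout a group. Of 7 smooth muscle markers 2, Acta2 and Mylk, were higher and 2 lower. The sum of the 7 was 86.4 to 106 CPM for JL IP and 26.2 to 29.0 for input. Mylk made up most of the JL IP sum, at 70.5, 76.6 and 72.4 CPM. The median log2 fold change of the list was -0.09, equal to that of all genes tested. Of 6 fibroblast markers tested 3, Col1a1, Col1a2 and Dcn, were higher and 3 lower, with sums of 55.4 to 87.5 and 49.3 to 52.4 CPM and Dpt, of the 7 listed genes, at 0 in every JL IP. The part of these vessel-wall markers in the members' values was not tested.

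The transducer and the ligand went opposite ways. Ctnnb1, which encodes beta-catenin, a protein of adherens junctions as well as of Wnt signalling, stood at 271, 277 and 253 CPM in the inputs and 796, 884 and 785 in the JL IPs (1.62 ± 0.08, edgeR adjusted p = 1.85e-07). Ndp stood at 4.81, 4.13 and 5.59 CPM in the inputs and, from 72, 13 and 66 counts, at 2.47, 0.377 and 2.23 in the JL IPs (-1.52 ± 0.57, edgeR adjusted p = 0.0374). The Ndp call ended without any of the input replicates (edgeR adjusted p = 0.0864, 0.065 and 0.11 without replicates 1, 2 and 3), and without JL IP replicate 2 the log2 fold change was -1.04 ± 0.25 (edgeR adjusted p = 0.0076). Norrin is known to be made by astrocytes in the brain. Of 9 astrocyte markers 7 were lower in the JL IPs and 2, the connexin genes Gja1 and Gjb6, were higher; their sum was 335 to 516 CPM for JL IP and 2183 to 2360 for input, with none at 0 throughout a group. Markers of neurons (10 of 10), oligodendrocytes (7 of 7), their precursors (4 of 5), microglia (6 of 7) and choroid plexus (4 of 5) were lower too. The fall was thus not particular to astrocyte markers, and 37.4% of all genes were lower. The part of any of these markers in the Ndp result was not tested.

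The next comparison set ribosome-bound RNA from investigator ES beside that from investigator JL. Of the 9 members 7 were lower in the ES IPs, none was higher, and Ndp and Ctnnb1 were not called. Among 16212 genes tested, 57.9% were called, 28.2% as lower and 29.7% as higher. The median was -2.31 (log2 fold change) for the members and 0.03 for all genes. The libraries of the 2 groups did not overlap for the 7 called members, which held for 65.9% of all genes. The 10 endothelial markers were all lower (median -2.88) and the 10 neuronal markers all higher (median 2.73). The part of this difference in purity in the members' values was not tested, and investigator, sequencing lane and any difference between the mice cannot be told apart.

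**Figure D2:**
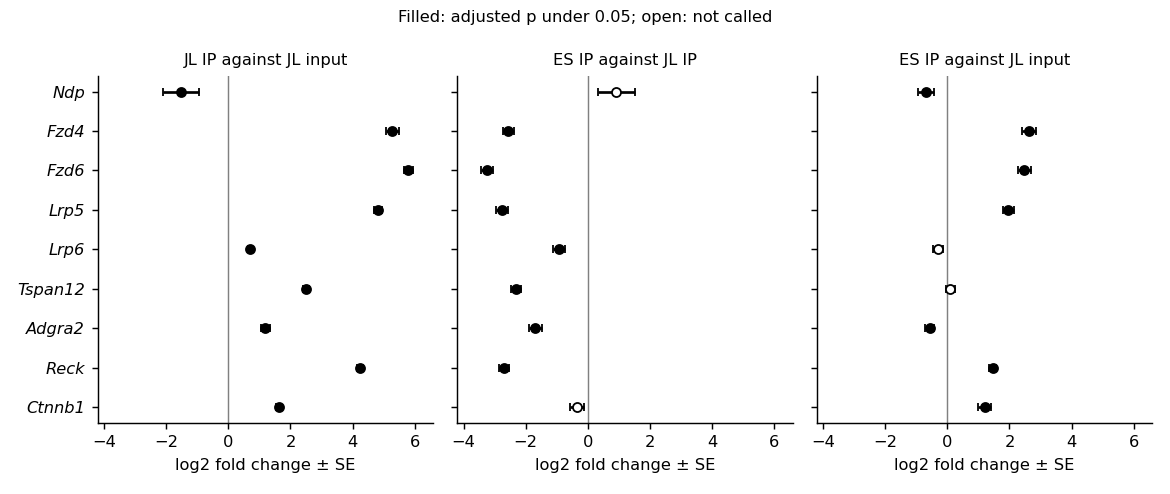
Log2 fold change of each member (± SE, edgeR) in the 3 comparisons; filled points passed an adjusted p of 0.05 and open points did not. Ndp and Ctnnb1 are open for ES IP against JL IP, Lrp6 and Tspan12 for ES IP against JL input.

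Fzd6 fell most. It stood at 23.9, 15.8 and 16.4 CPM in the ES IPs, a log2 fold change of -3.24 ± 0.20 against the JL IPs (edgeR adjusted p = 7.92e-07), close to that of Abcb1a (-3.30 ± 0.19). Lrp5, at 8.39, 11.4 and 9.38 CPM, had -2.77 ± 0.19. Reck, at 24.3, 24.3 and 23.2 CPM, had -2.69 ± 0.16, and its 3 ES libraries lay close together. Fzd4, at 19.0, 22.6 and 19.8 CPM, had -2.56 ± 0.17, and Tspan12, at 29.5, 21.7 and 24.5 CPM, had -2.31 ± 0.17. The edgeR adjusted p of these 4 genes lay between 7.29e-07 and 1.69e-06. Receptors, co-receptor and co-factors with strong enrichment in the JL IPs were thus all several-fold lower in the ES IPs. This comparison and the first share the JL IPs, so their results are not independent.

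The other members changed less or were not called. Adgra2 stood at 7.34, 6.45 and 6.85 CPM in the ES IPs (-1.69 ± 0.20, edgeR adjusted p = 3.48e-05) and Lrp6 at 50.3, 63.2 and 76.9 (-0.92 ± 0.19, edgeR adjusted p = 0.00151). Ctnnb1 stood at 504, 842 and 500 CPM (-0.34 ± 0.22, edgeR adjusted p = 0.214). Replicate 2 was the high one and overlapped with the JL IPs; without it Ctnnb1 was called lower (-0.62 ± 0.19, edgeR adjusted p = 0.0201). Ndp stood at 3.60, 2.03 and 3.41 CPM, overlapping with the JL IPs (0.92 ± 0.60, edgeR adjusted p = 0.211).

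Against the JL inputs, the ES IPs kept only part of the pattern. Of the 9 members 5 were higher, 2 were lower and 2 were not called. Among 17477 genes tested, 52.2% were called, 26.9% as higher and 25.3% as lower. The median was 1.21 (log2 fold change) for the members and 0.00 for all genes. For 8 members the libraries did not overlap, which held for 64.3% of all genes. This comparison shares its inputs with the first and its IPs with the second, and no ES input was used here, so fraction and investigator cannot be told apart. All 5 choroid plexus markers were lower in the ES IPs than in the inputs (median -4.14), with sums of 5.23 to 7.64 CPM in ES IP, 48.5 to 65.6 in JL IP and 659 to 754 in input. None was at 0 throughout a group, and their part in the members' values was not tested. With upper quartile scaling the median of all genes moved by -0.15 and the share of calls that were higher from 51.5% to 40.7%.

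Higher in the ES IPs than in the inputs were Fzd4 (2.63 ± 0.22), Fzd6 (2.47 ± 0.21), Lrp5 (1.96 ± 0.18), Reck (1.46 ± 0.12) and Ctnnb1 (1.21 ± 0.21), with edgeR adjusted p from 4.93e-05 to 0.00207. These 5 genes were called under every alternative run. Tspan12 was not called, with 0.10 ± 0.15 and overlapping libraries, and its value turned to -0.05 with upper quartile scaling and to -0.01 with library size alone or without ES replicate 1. Adgra2 and Lrp6, higher in JL IP than in input, lay below all inputs here in all 3 libraries. Adgra2 had a log2 fold change of -0.57 ± 0.14 (edgeR adjusted p = 0.0104; 0.0548 without input replicate 3), and Lrp6 of -0.31 ± 0.16 (edgeR adjusted p = 0.137; 0.0498 with upper quartile scaling and 0.024 without ES replicate 3). Ndp was lower (-0.69 ± 0.25, edgeR adjusted p = 0.0472), a call that ended in 1 fit of all 9 libraries (edgeR adjusted p = 0.289) and without ES replicate 2 or 3 or any input replicate (0.0605 to 0.156).

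Ratios of counts between 2 genes of the same library, which do not depend on library scaling, showed which partners changed unequally. Over the 3 groups, 3 of 4 ratios differed (exact permutation test over 1680 arrangements of the 9 libraries, adjusted over the 4; the smallest raw p this test allows is 0.00357). The arrangements took no account of any link between JL IPs and JL inputs of the same replicate number. The log2 ratio of Lrp5 to Lrp6 was -4.98 ± 0.12 for input, -2.70 ± 0.30 for ES IP and -0.85 ± 0.11 for JL IP (SD, n = 3; exact p = 0.00357, adjusted 0.00714). That of Adgra2 to Reck ran the other way, at 0.23 ± 0.16, -1.80 ± 0.10 and -2.81 ± 0.22 (SD, n = 3; exact p = 0.00357, adjusted 0.00714). In both pairs every library of a group lay apart from those of the other groups, with the ES IPs in between.

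Tspan12 and its receptor Fzd4 differed by group too. Their log2 ratio was 2.86 ± 0.45 for input, 0.29 ± 0.34 for ES IP and 0.05 ± 0.19 for JL IP (SD, n = 3; exact p = 0.0143, adjusted 0.0190). Their raw counts were thus near parity in both kinds of IP and several-fold apart in input RNA. Counts take no account of gene length. In CPM per kb of exon Tspan12 lay above Fzd4, at 40.0 against 19.0 in JL IP and 7.62 against 3.05 in ES IP. The log2 ratio of counts, but not the level of either gene, overlapped between the ES IPs (-0.06 to 0.63) and the JL IPs (-0.16 to 0.18). Fzd4 against Fzd6 gave no difference past the threshold, at -0.05 ± 0.62, 0.15 ± 0.44 and -0.55 ± 0.19 (SD, n = 3; exact p = 0.211, adjusted 0.211). Input libraries held only 119 to 197 counts of either receptor, which limits how small a difference this ratio can show.

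**Figure D3:**
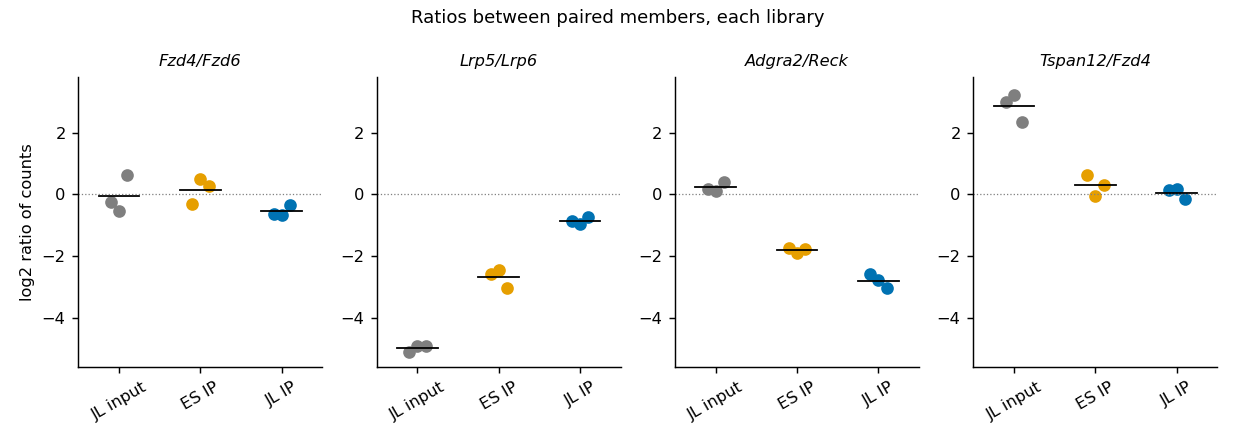
Log2 ratio of counts for the 4 pairs in each library, with group means as bars (n = 3). The ratio Lrp5/Lrp6 climbs from -4.98 (input) to -0.85 (JL IP), Adgra2/Reck falls from 0.23 to -2.81, and Tspan12/Fzd4 falls from 2.86 to 0.05.

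Levels of different genes were compared per kilobase of annotated exon, as CPM per kb. In the JL IPs the order was Ctnnb1 (158 ± 10.5), Tspan12 (40.0 ± 2.24), Fzd6 (38.7 ± 2.26), Reck (34.1 ± 1.75), Fzd4 (19.0 ± 1.87), Lrp6 (9.30 ± 0.339), Lrp5 (7.23 ± 0.477), Adgra2 (4.05 ± 0.433) and Ndp (0.871 ± 0.589; SD, n = 3). Among neighbours only Tspan12 and Fzd6 overlapped. In the inputs the order was Ctnnb1 (51.4), Tspan12 (7.10), Lrp6 (5.77), Ndp (2.50), Reck (1.82), Adgra2 (1.77), Fzd6 (0.699), Fzd4 (0.492) and Lrp5 (0.256), with overlap between Reck and Adgra2 and between Fzd6 and Fzd4. In the ES IPs Ctnnb1 (119) and Tspan12 (7.62) led again and stood apart. Below them Reck, Lrp6, Fzd6 and Fzd4 overlapped each with the next, from 5.01 to 3.05, and so did Ndp, Adgra2 and Lrp5, from 1.55 to 0.998. Adgra2 was thus the least abundant of the receptor-side genes in the JL IPs per length. With coding length in place of exon length, Fzd4 came to 79.3, Fzd6 to 87.6 and Reck to 56.0 CPM per kb in the JL IPs, so Fzd4 then stood above Reck.

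Set among all 10 Frizzled genes, the 2 members made up most of the family in the JL IPs. Fzd6 held 49.5 ± 2.39% and Fzd4 24.3 ± 2.02% of Frizzled reads per kb there, and Fzd3, a Frizzled of axon guidance, 5.79 ± 0.339% (SD, n = 3). In the inputs Fzd3 held 74.2 ± 0.381%, and Fzd4 and Fzd6 together 3.75 ± 0.378%. In the ES IPs Fzd4 and Fzd6 together held 34.7, 24.4 and 22.4%, and Fzd3 38.7, 51.9 and 53.8%, so replicate 1 stood apart from the others toward the JL pattern. With coding lengths the share of Fzd4 and Fzd6 was 71.5% for JL IP and 2.12% for input, and that of Fzd3 was 12.4% and 88.0%. Fzd3 fell alongside the neuronal markers, whose sums are given above, and their part was not tested.

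Within the co-receptor pair, Lrp5 held 43.7 ± 1.94% of reads per kb for JL IP, 17.9 ± 2.93% for ES IP and 4.25 ± 0.327% for input. Among the 4 TCF and LEF factors, which carry beta-catenin to its targets, Tcf7 held 57.5 ± 1.25% and Lef1 27.9 ± 0.913% in the JL IPs, while Tcf7l2 held 77.4 ± 1.79% in input and 5.94 ± 0.161% in JL IP. The ES IPs had Tcf7 at 50.3 ± 5.17%, Lef1 at 27.6 ± 2.23% and Tcf7l2 at 6.64, 11.6 and 12.1%. With coding length Lef1 came before Tcf7 in the JL IPs, at 49.0% against 39.6%, and Tcf7l2 still led the inputs at 81.2%. Tcf7l2 itself stood at 113, 108 and 100 CPM in input and 79.0, 81.1 and 85.2 in JL IP (-0.39 ± 0.07). That was a small fall beside the rises of Tcf7 and Lef1. In the ES IPs Tcf7l2 was lowest, at 17.0, 23.7 and 26.3 CPM (-2.26 ± 0.18 against input and -1.79 ± 0.20 against JL IP). In each of the 3 families the leading gene's share in the inputs was lower in every JL IP library.

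**Figure D4:**
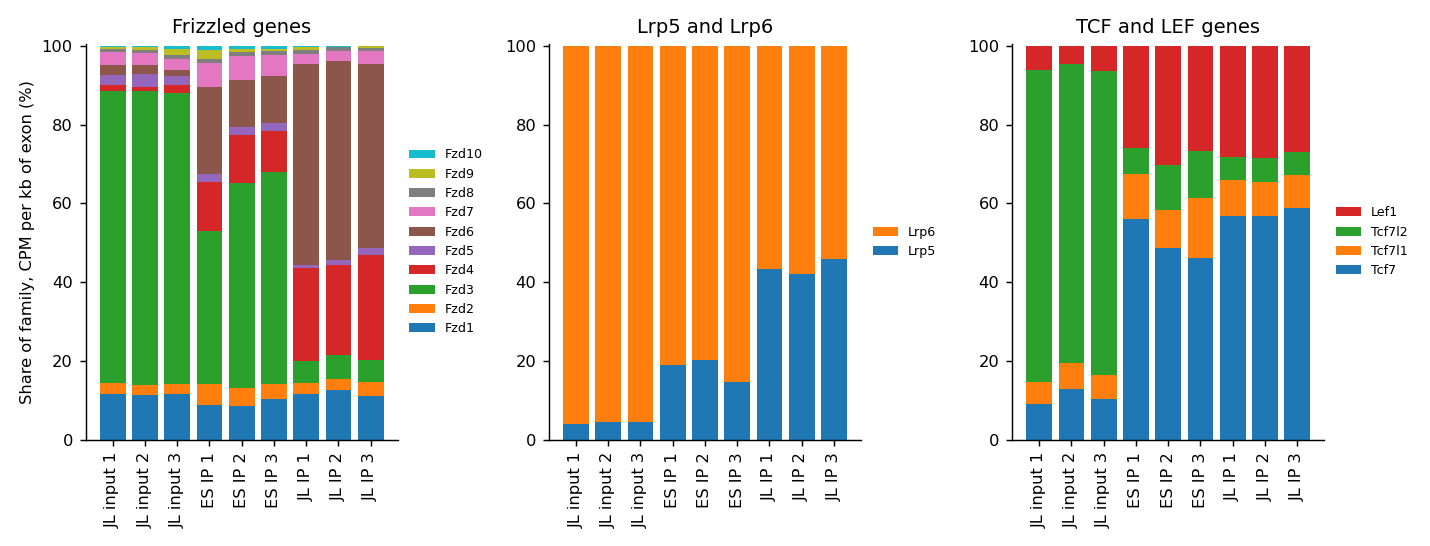
Share of each gene in the summed CPM per kb of exon of its family, in each library, for the 10 Frizzled genes, Lrp5 and Lrp6, and the TCF and LEF genes. Fzd3 fills 74.2% of the input bars, Fzd4 and Fzd6 fill 73.8% of the JL IP bars, and Tcf7 with Lef1 fill the larger part of the TCF and LEF bars in both kinds of IP.

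Around the complex, 95 further genes of the pathway were grouped by role, and 88 were tested for JL IP against input. Of these, 39 were higher, 32 lower and 17 not called (median 0.19 on the log2 scale). Over all genes tested, 36.7% were higher and 37.4% lower (median -0.09). These shares also stand beside every list count of this comparison below. The 6 feedback targets, genes that beta-catenin signalling is known to induce, were all higher in the JL IPs (median 3.38). All 6 were lower in the ES IPs than in the JL IPs (median -2.59), beside 28.2% of all genes. Of the 6, 4 were higher in the ES IPs than in the inputs, beside 26.9% of all genes. Apcdd1, an inhibitor of Wnt at the membrane, had 6.12 ± 0.12 in the first comparison, and Axin2, a scaffold of the destruction complex, 2.43 ± 0.07 at 145, 153 and 159 CPM. Of 12 nuclear partners of beta-catenin 7 were higher and 4 lower. Tcf7 led at 233, 228 and 250 CPM against 3.85, 5.43 and 3.96 (5.75 ± 0.14), followed by Lef1 at 389, 383 and 381 against 8.58, 6.73 and 8.53 (5.60 ± 0.11), and Pygo1, an adaptor of the complex, was lowest (-1.99 ± 0.23).

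The Wnt ligands were divided. Of 16 tested, 8 were lower in the JL IPs, 5 higher and 3 not called (median -1.69, beside -0.09 for all genes, of which 37.4% were lower and 36.7% higher). Wnt5a, a ligand that often acts without beta-catenin, had the highest level and stood at 28.8, 37.8 and 26.9 CPM against 9.56, 9.08 and 10.2 (1.70 ± 0.16). Wnt11 had the largest rise (3.13 ± 0.81), at 0.959, 0.667 and 1.11 CPM against 0.0196, 0.220 and 0.0653 in the inputs. Wnt10a had the largest fall (-3.43 ± 0.51), to 0.240, 0.232 and 0.101 CPM in the JL IPs. At such low levels counting error is large. Wnt7a and Wnt7b, the ligands of Adgra2 and Reck, were looked up for that role after their values were seen. Wnt7b stood at 8.81, 9.10 and 9.85 CPM for input, 12.4, 11.8 and 11.8 for ES IP and 1.88, 1.89 and 2.53 for JL IP (-2.14 ± 0.22, edgeR adjusted p = 2.8e-05), and Wnt7a had -2.42 ± 0.44 (edgeR adjusted p = 0.00111). Both ligands were thus lower in JL IP than in either other group, as the neuronal marker sum was, and the part of neuronal RNA in this was not tested.

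Among the 8 other Frizzled genes 4 rose from input to JL IP and 3 were not called. Fzd2 rose most, by 1.52 ± 0.20. Fzd3 alone fell, from 296, 306 and 304 CPM to 52.7, 64.6 and 56.9 (-2.38 ± 0.09). Of 12 other co-receptors and planar polarity genes 5 were higher and 4 lower. These included paralogs that moved apart, Celsr1 (1.85 ± 0.27) and Celsr2 (-1.90 ± 0.27), cadherins of planar polarity, and Ror2 had the smallest value (-2.93 ± 0.79) at under 1 CPM in every library. Among 13 tested secreted inhibitors 3 were higher and 5 lower. Notum, an enzyme that removes the lipid from Wnt, went from 0.216, 0.240 and 0.196 CPM in input to 12.1, 11.3 and 9.88 in JL IP (5.65 ± 0.26), while Dkk3 at -2.26 ± 0.15 and Sfrp2 at -4.16 ± 0.79 were lower. Sfrp2 stood at only 0.00, 0.232 and 0.135 CPM in the JL IPs, where counting error is large. The others of this list that rose were Dkk2 (3.33 ± 0.23) and Kremen1, a membrane receptor of Dkk proteins (1.68 ± 0.15), named to complete the count after their values were seen.

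Of 8 tested genes of the R-spondin axis, which controls how many Frizzled receptors stay on the surface, 2 were higher and 5 lower. The secreted Rspo3 went from 15.6, 18.0 and 15.5 CPM in input to 54.8, 69.3 and 65.4 in JL IP (1.95 ± 0.12), and its receptor Lgr5 was lower (-3.80 ± 0.52). Of 11 genes listed under the destruction complex and Dishevelled 6 were higher and 4 lower. Their log2 fold changes ran from Btrc, a ubiquitin ligase subunit (-1.22 ± 0.09), to Ctnnbip1 (1.86 ± 0.09). Ctnnbip1 is an inhibitor of beta-catenin with TCF that was placed in this list. The abundant kinase Gsk3b was at -0.52 ± 0.07. Of the genes for ligand secretion, Wls, the carrier of Wnt to the surface, was higher (1.40 ± 0.15) and Porcn, the enzyme that adds the lipid, lower (-0.93 ± 0.15).

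**Figure D5:**
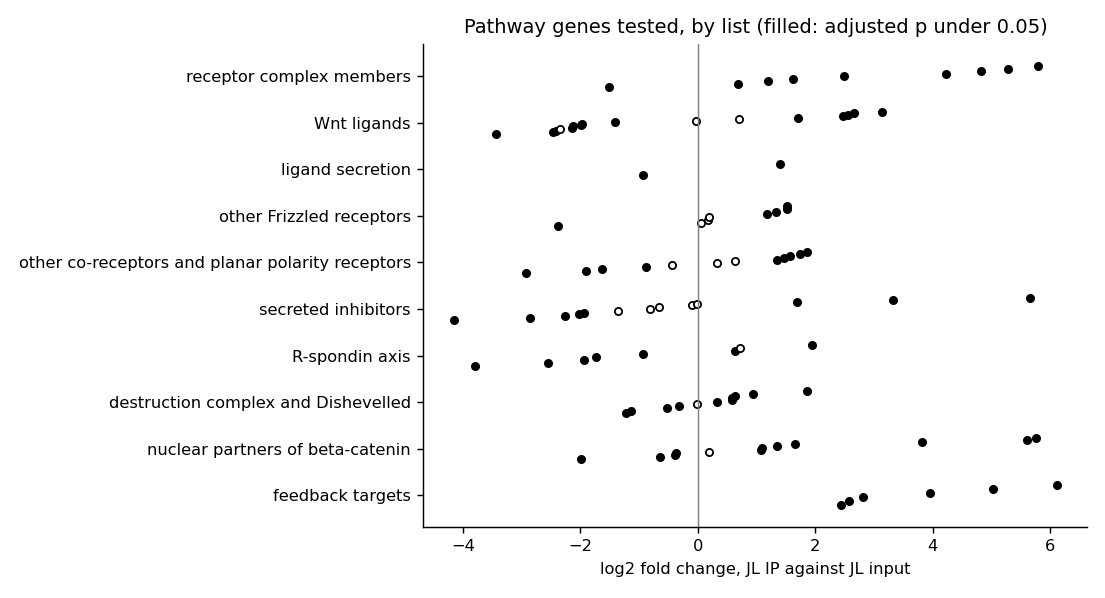
Log2 fold change of JL IP against JL input (edgeR) for the 9 members and the tested genes of each pathway list; each point is a gene, filled where the adjusted p was under 0.05. All 6 feedback targets lie above 2, while Wnt ligands and the R-spondin axis spread to both sides of 0.

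Genes whose pattern across the 9 libraries was nearest to each member were found by the root mean square difference of centred log2 CPM, among genes with at least 5 CPM in their highest group. The libraries form 3 groups, so likeness mostly reflects the group means. Fzd6 was nearest to Ccdc125 (0.11) and to Kdr (0.16), a VEGF receptor of endothelium. Reck was nearest to Cgnl1 (0.11), a junction protein, and Ebf1 (0.11), a transcription factor, Lrp5 to Lnx2 (0.13) and Tgfb1 (0.16), and Fzd4 to Sorbs3 (0.20) and Tns2 (0.23). The less enriched members had other neighbours: Tspan12 was nearest to Prrg1 (0.10) and Zfp229 (0.10), Lrp6 to Chst15 (0.06) and Pank3 (0.08), and Adgra2 to Srsf2 (0.07) and Mfsd1 (0.10). Ctnnb1 was nearest to Pls3 (0.13) and Tle3 (0.17), a co-repressor that binds TCF factors, and Ndp to Glt8d2 (0.23) and Il1rapl1 (0.30). No member was among the 2 nearest genes of another.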

How the data were processed

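RNA of 9 cortex libraries was sequenced. The submitters' processing notes name STAR 2.0.0e, HTSeq and the mm10 build. Which annotation and strand rule were used is not given, so reads of overlapping antisense genes cannot be separated. The authors deposited whole-number counts for each gene, unscaled, in a file per library. Rows that name no gene did not enter library sizes or tests: reads without a feature came to 17.3 to 24.4% and ambiguous reads to 2.04 to 11.3%. The ambiguous share followed the fraction, at 10.3 to 11.3% in the inputs and 2.04 to 2.54% in the IPs. Its part in the values of IP against input was not tested. The row Rn45s (ribosomal RNA) held 15.7 to 17.9% of gene counts in the JL IPs, 6.04 to 12% in the ES IPs and 4.83 to 5.29% in the inputs. A count of 3 corresponds to 0.0644 to 0.0938 CPM, and levels near it carry large counting error.

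Counts were tested over all genes with edgeR 4.0.16 under R 4.3.3 (low counts filtered by filterByExpr, TMM, glmQLFit, glmQLFTest, Benjamini-Hochberg threshold 0.05), each fit holding only the 2 groups compared, and the test was checked on simulated counts. SEs were derived from each log2 fold change and its F statistic. Levels are CPM with TMM factors over all 9 libraries, per kb of the union of GENCODE M21 exons. Ratios used a pseudocount of 0.5 counts. Alternatives were DESeq2 1.42.0, limma-voom (limma 3.58.1), upper quartile scaling, library size alone, no filter, 1 fit of all 9 libraries, a replicate block, leaving out Rn45s and leaving out each library. The file names give the same sequencing lane to the JL IP and JL input of a replicate number. Their deviations from the group means correlated at 0.27, 0.12 and 0.17 for the same number, and at 0.06 or less for unlike numbers. Between ES and JL IPs of unlike numbers the correlation reached 0.21, so values of this size do not by themselves show a pair.

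The members, the pathway and marker lists and the tests were chosen with earlier results of these data known. Named were the 9 members, Abcb1a, the 2 genes nearest in pattern to each member, and from each pathway list the gene with the highest level and those with the largest and smallest log2 fold change of JL IP against input.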

Additional observations from a re-analysis of the deposited data

Results flagged for a closer look

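The IP level differed between the 2 investigators for 7 members, by the direct test of ES IP against JL IP (edgeR, adjusted p from 7.29e-07 to 0.00151). Among all 16212 genes tested, 57.9% were called, 28.2% as lower in the ES IPs. In log2 units the ES value was below the JL value in all 7, with -2.56 for Fzd4, -3.24 for Fzd6, -2.77 for Lrp5, -0.92 for Lrp6, -2.31 for Tspan12, -1.69 for Adgra2 and -2.69 for Reck. For Adgra2 and Lrp6 the 3 JL IPs lay above and the 3 ES IPs below all inputs. Both investigators' IPs were set against the same JL inputs, so a rise over input within the ES material was not measured. With 3 libraries a group, no library was tested as an outlier.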

How the results depend on the processing

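Each member's value was recomputed under 14 alternatives in each comparison. Of 126 values, 123 kept direction and side of the threshold for JL IP against input, 125 for ES against JL IP and 114 for ES IP against input. The exceptions were those of Ndp, Ctnnb1, Adgra2, Lrp6 and Tspan12 given with the results; Tspan12, never called for ES IP against input, turned to -0.05 with upper quartile scaling and to -0.01 with library size alone and without ES replicate 1, within a range of -0.01 to 0.21 over single libraries left out.

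The members higher stayed at 8 (JL IP against input) and 5 (ES IP against input) under every alternative. Those lower for JL IP against input ranged from 0 to 1 with single libraries left out, and for ES IP against input from 0 to 2; the latter came to 3 with upper quartile scaling and 1 in 1 fit of all 9 libraries. Without ES replicate 2, 8 members were lower than in the JL IPs. Without input replicate 1, pathway genes higher in the ES IPs than in the inputs came to 17 in place of 27; with single libraries left out they ranged from 17 to 32. The replicate block changed no call of a member: 8 stayed higher and 1 lower for JL IP against input. For ES against JL IP the numbers share no such link (correlations 0.16, -0.08 and 0.08, not each library closest to its own number), and the block left 7 members lower. ES IPs and inputs of the same number correlated at 0.05, each library closest to its own number, and the block left 5 members higher and 2 lower. Library size alone moved the median of all genes by -0.26 for JL IP against input. By Pearson correlation 6 of the 18 nearest genes were the same. The 4 ratios kept direction and side of the threshold throughout. Input libraries held 116 to 197 counts of Fzd4, Fzd6 and Lrp5, which limits precision there.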
